A study of Sus scrofa with 6 samples.

Results

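DEAD and DEAH box RNA helicases were followed in single pig oocytes of the germinal vesicle stage, where the chromosomes are still enclosed in the nucleus of the immature egg. Members were the genes whose NCBI gene ID carried a pig symbol beginning with DDX or DHX and a digit, without DDX4 and DDX6. They numbered 48 of 19300 genes, 33 with a DDX symbol and 15 with a DHX symbol. The libraries came from 3 BCB-positive and 3 BCB-negative oocytes, 1 oocyte per library. The classes come from staining with brilliant cresyl blue (BCB), which growing oocytes reduce, so oocytes that stay blue (BCB-positive) are generally taken as fully grown and colourless ones (BCB-negative) as still growing. All oocytes came from antral follicles of 3 to 6 mm with at least 3 cumulus layers, were freed of cumulus cells and zona pellucida, and had no maturation culture. The labels name no animal, breed or age for any oocyte, so each class is 1 sample of 3 cells, and the classes are compared by size and overlap without a test.

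Helicases of these families use ATP to part RNA strands or strip proteins from RNA. The families are named after a short motif in single-letter amino acid code (Asp-Glu-Ala-Asp or Asp-Glu-Ala-His). Members were taken by symbol, without a check of the motif, and include DDX11, a DNA helicase. DEAD box members mostly open short duplexes locally, whereas DEAH box members move along a strand and are often switched on by partners with a glycine-rich patch. Between them they drive the steps of splicing, the making of ribosomes in the nucleolus, export of mRNA and the start of translation. A germinal vesicle oocyte stores mRNA made during growth, and the level measured here is polyadenylated RNA, since cDNA was primed with a poly(dT) stretch of 24 nt.

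Expected counts per oocyte ranged from 7122750 to 9238990. BCB-positive oocyte 3 stood apart. Across the 11495 genes whose mean reached 1 FPKM (a level scaled to transcript length and library depth), its log2(FPKM + 1) values had a mean Pearson correlation of 0.874 with the other oocytes, against 0.905 to 0.915 for those. Its 10 most abundant genes took 9.80% of its counts, against 15.6% to 19.0% elsewhere. The counts over all members at least 1.5-fold apart, and the differences of those whose classes did not overlap, are given with and without it. Some other results are given with all oocytes only. All 9 oocyte markers were listed, and their sum was 26248, 18015 and 13350 FPKM in BCB-positive oocytes 1, 2 and 3 and 30178, 18801 and 24649 FPKM in BCB-negative oocytes 1, 2 and 3, lowest in BCB-positive oocyte 3. In that oocyte FIGLA was at 53.8 FPKM, against 178 to 253 FPKM in the others, OOEP at 663 FPKM, against 1755 to 3850 FPKM, and ZAR1 at 342 FPKM, against 525 to 727 FPKM. Of the 9, 2 (ZP3 and FIGLA) were at least 1.5-fold lower in BCB-positive oocytes and 0 without BCB-positive oocyte 3. ZP3 and ZP4, which encode zona proteins, were the most abundant of them. Of 9 markers of cumulus and granulosa cells, 5 (FSHR, AMHR2, FOXL2, HAS2 and NR5A2) were not found by symbol in any oocyte. Another 3 (CYP19A1, AMH and VCAN) were under 1 FPKM in every oocyte. The ninth, INHBA, was at 26.1 to 31.9 FPKM in BCB-positive and 19.8 to 30.0 FPKM in BCB-negative oocytes. The summed level was at most 3.52 FPKM for theca markers (INSL3 and STAR, 2 of 4), 4.60 FPKM for leukocyte markers (CD3E and PTPRC, 2 of 4) and 3.88 FPKM for endothelial markers (PECAM1 and KDR, 2 of 4). The red cell markers HBB and ALAS2 were not found by symbol in any oocyte. STAR had 1.56, 1.79 and 0.40 FPKM in BCB-positive oocytes, against 0.05, 0.37 and 0.16 FPKM in BCB-negative oocytes, with no overlap, and INSL3 was listed above 0 in BCB-negative oocytes 2 and 3 alone. The leukocyte sum was separate between classes, 2.93 to 4.60 FPKM in BCB-positive and 0.11 to 1.19 FPKM in BCB-negative oocytes, mostly from CD3E, with PTPRC at 0.56 FPKM or less. The part of these markers in the results was not tested.

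The family covered a wide range of levels, and most of its members were listed above 0 in every oocyte. Of the 48 members, 41 were listed in all 6 oocytes, and the same share of all genes was not computed. Some were listed in an oocyte from under 3 expected counts, such as DDX1 in BCB-negative oocyte 3 (1.51) and DHX57 in BCB-negative oocyte 2 (1). The mean was at least 50 FPKM for 6 members, 10 to 50 FPKM for 18, 1 to 10 FPKM for 18 and under 1 FPKM for 6. The 42 members with a mean of at least 1 FPKM were compared between classes. Their median level was 14.6 FPKM, against 8.98 FPKM for all genes compared. All members together held 0.271%, 0.274% and 0.329% of the counts in BCB-positive oocytes 1, 2 and 3, and 0.292%, 0.264% and 0.282% in BCB-negative oocytes 1, 2 and 3. Below, every set of 3 values runs over oocytes 1, 2 and 3 of a class.

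**Figure D1:**
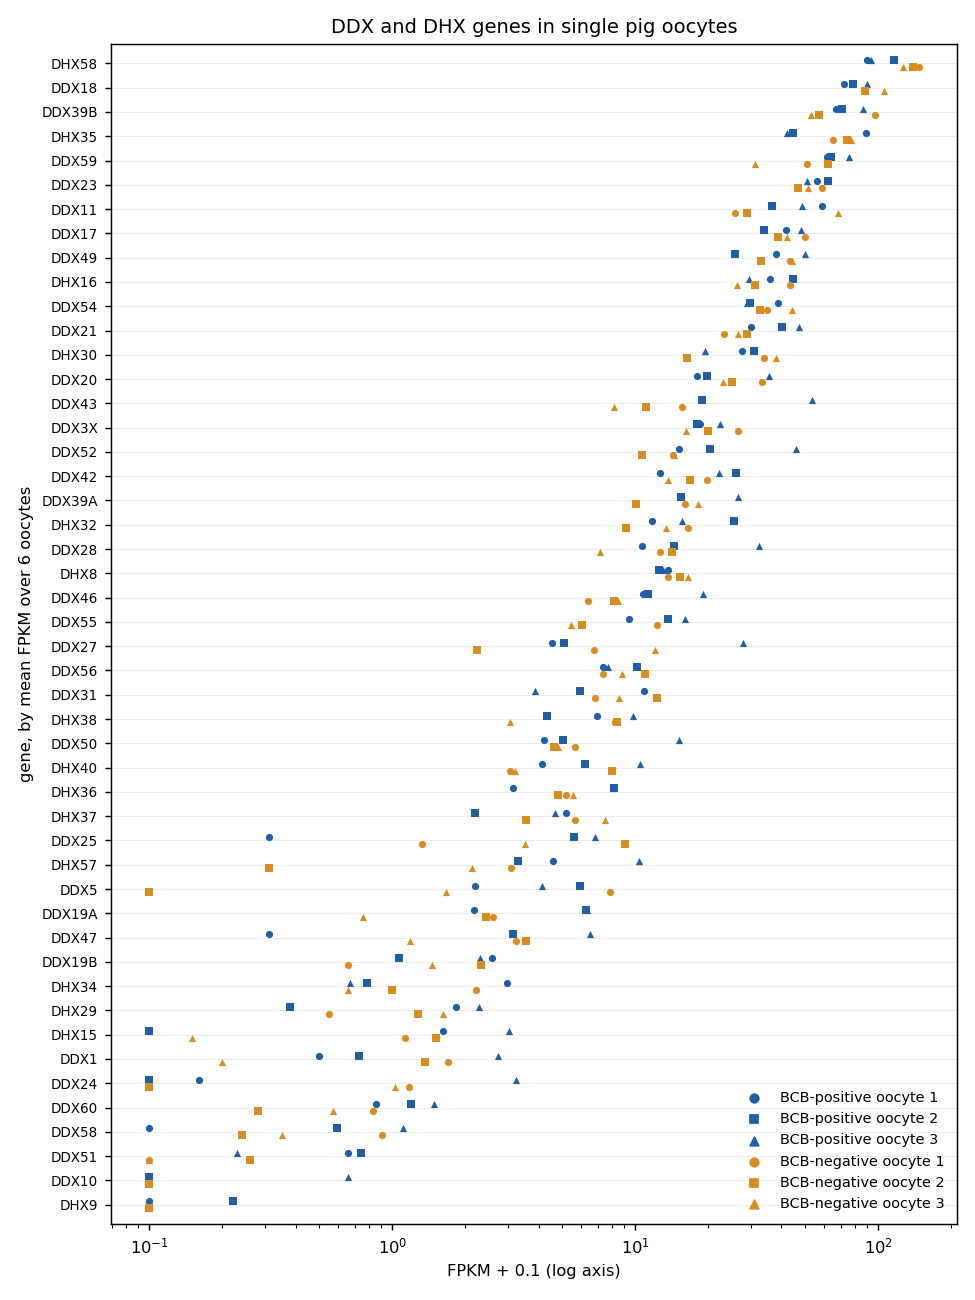
Level of each of the 48 DDX and DHX genes in each oocyte, as FPKM + 0.1 on a log axis, with genes ordered by mean and the BCB-positive points drawn just above the BCB-negative ones. DHX58 leads at 89.6 to 147 FPKM, DHX9 is at 0 in all oocytes but 1, and the classes overlap for most genes.

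Most helicases did not separate the classes, and those furthest apart were higher in BCB-positive oocytes. Of the 42 members compared, 8 were at least 1.5-fold higher on the log2(FPKM + 1) scale, or 19.0%, next to 18.9% of all genes compared. None was at least 1.5-fold lower (0 of 42), next to 9.46% of all genes. Among the 8 were 4 whose BCB-positive oocytes all lay above all BCB-negative oocytes, namely DDX43, DDX46, DDX52 and DHX57, or 9.52% next to 5.75% of all genes. In the other direction the count was 0, next to 2.66%. The share of higher members was thus near that of all genes. The median log2 difference of the members was 0.16, next to 0.11 for all genes compared, and the median SD between oocytes of a class was 0.48 for members and 0.54 for all genes.

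Single oocytes set these counts. Without BCB-positive oocyte 3, 4 members were at least 1.5-fold higher, next to 14.6% of all genes, 2 of them (DDX43 and DHX57) with no overlap, next to 7.19% of all genes. The median was then 0.02, next to 0.05 for all genes. Without BCB-positive oocyte 1, 16 members were higher, next to 26.0% of all genes, and 9 were higher with no overlap, next to 13.7%. Without BCB-negative oocyte 2 the count with no overlap was 7, next to 8.73% of all genes. The shares of all genes thus moved the same way as the counts of members in each of these omissions except the share with no overlap when BCB-positive oocyte 3 was left out. The count of members at least 1.5-fold lower was 3, 1 and 2 when BCB-positive oocyte 1, 2 or 3 was omitted, and 2, 1 and 0 when BCB-negative oocyte 1, 2 or 3 was omitted. The shares of all genes at least 1.5-fold lower were 13.6%, 12.2% and 10.3% for the BCB-positive omissions and 11.7%, 11.0% and 10.8% for the BCB-negative ones. The members at least 1.5-fold lower with no overlap were DDX31 and DHX35 without BCB-positive oocyte 1 (2 members, next to 6.92% of all genes) and DHX37 without BCB-negative oocyte 2 (1 member, next to 5.01%). The 2 at least 1.5-fold lower were DDX25 and DDX47 without BCB-positive oocyte 3, and DDX25 and DDX31 once BCB-negative oocyte 1 was left out. No member was at least 1.5-fold lower under every one of these omissions.

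**Figure D2:**
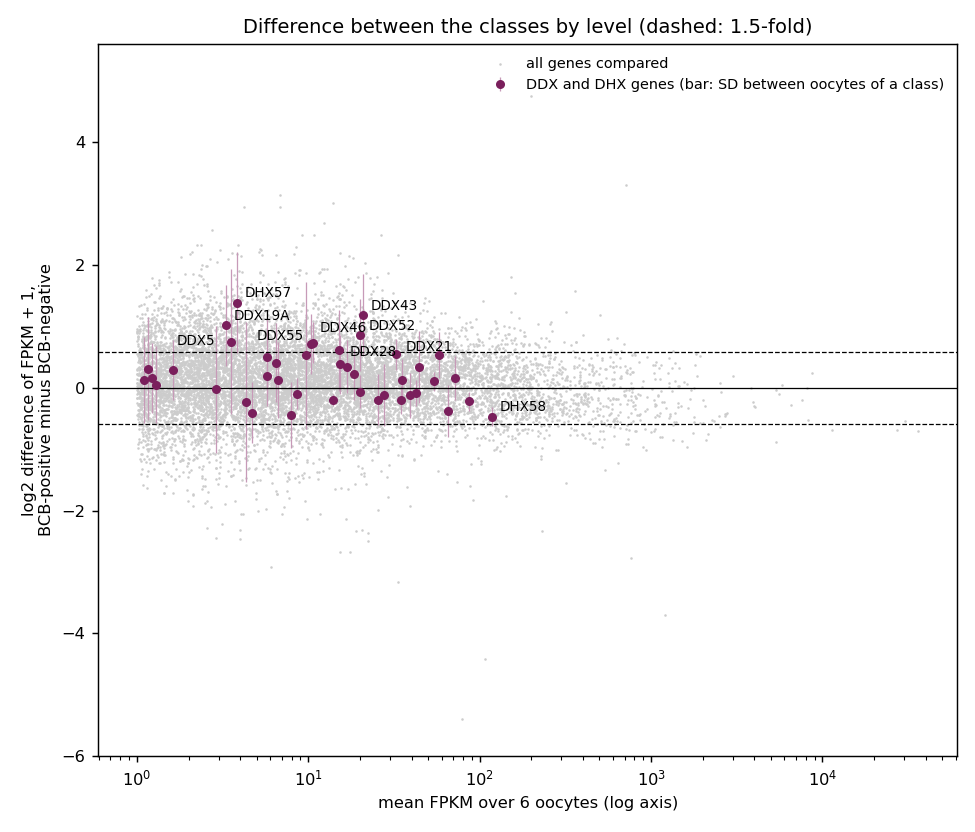
Log2 difference of FPKM + 1, BCB-positive minus BCB-negative, against mean FPKM on a log axis, for the 42 members (bars, SD between oocytes of a class) and all 11495 genes compared (grey). The dashed lines mark 1.5-fold, and 8 members lie above the upper line and 0 below the lower one.

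BCB-positive oocyte 3 held the highest value of 20 of the 42 members, or 47.6%, and the highest value of 32.6% of all genes compared. It lay at least 1.5-fold above both other BCB-positive oocytes for 13 members, or 31.0%, next to 21.9% of all genes, and at least 1.5-fold below both for 0 members, next to 12.4%. The 13 members were DDX1, DDX20, DDX27, DDX28, DDX39A, DDX43, DDX46, DDX47, DDX50, DDX52, DHX15, DHX40 and DHX57. The median deviation of the members from their own 6-oocyte mean was -0.06, 0.00 and 0.45 on the log2 scale in the BCB-positive oocytes, and 0.02, -0.13 and -0.17 in the BCB-negative oocytes. The same median over all genes compared was 0.15 in BCB-positive oocyte 3. The shift of that library was thus larger over these helicases than over all genes, as a description of a single library.

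**Figure D3:**
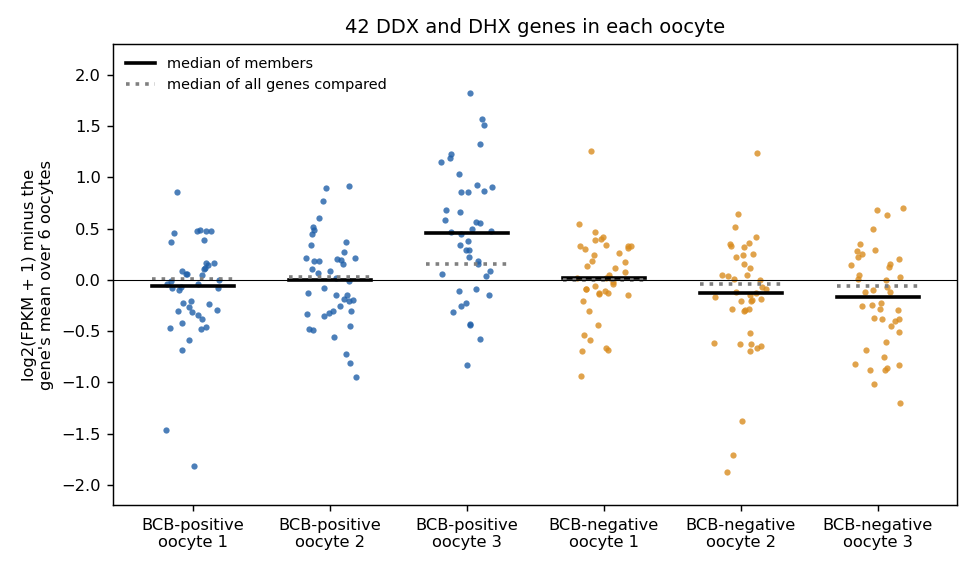
Log2(FPKM + 1) of each of the 42 members in each oocyte, minus that gene's mean over the 6 oocytes. Black lines are medians of members and dotted lines medians of all genes compared, and BCB-positive oocyte 3 has the highest pair of medians, at 0.45 and 0.15.

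Helicases of pre-mRNA splicing included some of the most abundant members. Of 14 listed genes, 13 were found and 12 compared, of which 2 were at least 1.5-fold higher (DDX46 and DDX5) and 0 lower. Here and in the groups that follow, the shares of all genes to read such counts against are 18.9% higher and 9.46% lower. For counts without BCB-positive oocyte 3 the shares are 14.6% higher and 10.3% lower. The median log2 difference of the splicing helicases was 0.14. Leaving out BCB-positive oocyte 3 gave a median of 0.07 with 1 higher. The summed level was 351, 331 and 353 FPKM in BCB-positive oocytes, against 386, 308 and 311 FPKM in BCB-negative oocytes, so the groups overlapped.

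DDX46 (NCBI gene 100626833), which helps the splicing machinery settle on the branch site of an intron, was the splicing member with separate classes. It had 10.6, 11.2 and 18.9 FPKM in BCB-positive oocytes, against 6.31, 8.04 and 8.37 FPKM in BCB-negative oocytes. The lowest BCB-positive oocyte lay above the highest BCB-negative one, and BCB-positive oocyte 3 lay furthest off. The means were 13.6 ± 4.64 FPKM in BCB-positive and 7.57 ± 1.11 FPKM in BCB-negative oocytes (SD, n = 3 each), and the log2 difference was 0.73 (SD between oocytes 0.33), or 1.66-fold. It was 0.48 without BCB-positive oocyte 3, which is under 1.5-fold.

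DDX39B, which loads export factors onto spliced mRNA, stood at 66.7, 70.9 and 86.2 FPKM in BCB-positive oocytes, against 97.1, 57.2 and 52.7 FPKM in BCB-negative oocytes. DHX35, found in the catalytic spliceosome in human cells, had 88.9, 44.7 and 42.1 FPKM in BCB-positive oocytes, against 65.2, 74.6 and 77.4 FPKM in BCB-negative oocytes. DDX23, which makes way for the U6 snRNA at the start of an intron, stood at 56.1, 62.1 and 50.7 FPKM in BCB-positive oocytes, against 58.6, 46.8 and 51.3 FPKM in BCB-negative oocytes. All of these overlapped between classes, with log2 differences of 0.16 for DDX39B, -0.38 for DHX35 and 0.11 for DDX23. For DHX35, BCB-positive oocyte 1 was the highest of all, and without it the difference was -0.72.

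The DEAH helicases that act one after another in the splicing cycle stood at unequal levels per length. DHX16, which activates the assembled spliceosome, averaged 36.6 ± 7.71 FPKM in BCB-positive and 33.5 ± 8.96 FPKM in BCB-negative oocytes (SD, n = 3 each). DHX38, which acts between the catalytic steps, averaged 6.91 ± 2.72 FPKM in BCB-positive and 6.48 ± 3.06 FPKM in BCB-negative oocytes. DHX8, which frees the spliced mRNA, averaged 13.0 ± 0.512 FPKM in BCB-positive and 15.1 ± 1.49 FPKM in BCB-negative oocytes, and had the smallest SD between oocytes of the 42 members, 0.10 on the log2 scale. Its classes met at 13.5 FPKM, the value of oocyte 1 in both. DHX15, which takes the spent spliceosome apart, was far lower, at 1.52, 0 and 2.93 FPKM in BCB-positive oocytes, against 1.03, 1.42 and 0.05 FPKM in BCB-negative oocytes. DDX42, which associates with the branch-site complex, averaged 20.2 ± 6.93 FPKM in BCB-positive and 16.7 ± 3.05 FPKM in BCB-negative oocytes. DHX38 overlaps PMFBP1 in the reference annotation, which had 2.36, 13.6 and 47.3 FPKM in BCB-positive oocytes, against 11.0, 9.45 and 9.22 FPKM in BCB-negative oocytes, and DDX42 overlaps FTSJ3. Elsewhere in the family DDX19A overlaps a long noncoding RNA, DDX54 overlaps RITA1, DDX58 overlaps ACO1 and DHX32 overlaps BCCIP. Gene overlap here means that whole gene spans meet in the Sscrofa11.1 annotation, and exons were not compared. Whether counting used strand is not stated, and the part of shared reads in these values was not tested.

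DHX9, a helicase of many nuclear RNA processes, was at 0 in 5 oocytes and at 0.12 FPKM in BCB-positive oocyte 2, from 3.90 expected counts. A count of 0 allows up to 3 reads in a library, so a level below that cannot be told from 0 at this depth. DDX5, which acts in splicing and in transcription, was listed with a gene model of 241 bases. It stood at 2.10, 5.82 and 4.04 FPKM in BCB-positive oocytes, against 7.74, 0 and 1.57 FPKM in BCB-negative oocytes. These values rested on 18 expected counts (95% Poisson interval 10.7 to 28.4) in BCB-positive and 12 (6.20 to 21.0) in BCB-negative oocytes, and the intervals overlap. The log2 difference of 0.75 (SD 1.18) was 0.00 without BCB-negative oocyte 2, 0.49 when BCB-positive oocyte 2 was omitted and 1.56 once BCB-negative oocyte 1 was left out. It was 1.79 with a pseudocount of 0.1 FPKM and 0.28 as a ratio of class means.

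Helicases of ribosome biogenesis ran from the second most abundant member to some of the least. Of 16 listed, 15 were found and 12 compared, with 2 at least 1.5-fold higher (DDX52 and DDX55) and 0 lower. The median log2 difference was -0.06. Leaving out BCB-positive oocyte 3 gave a median of -0.13 with 0 higher and 1 lower (DDX47). The summed level was 235, 240 and 346 FPKM in BCB-positive oocytes, against 251, 236 and 283 FPKM in BCB-negative oocytes, highest in BCB-positive oocyte 3.

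DDX18, whose yeast counterpart is needed for both ribosomal subunits, had 72.0, 78.9 and 89.9 FPKM in BCB-positive oocytes, against 87.5, 88.5 and 105 FPKM in BCB-negative oocytes. The classes overlapped through BCB-positive oocyte 3, and the log2 difference was -0.22 (SD 0.15). DDX52 (NCBI gene 100623826), of small subunit processing, stood at 15.0, 20.3 and 45.8 FPKM in BCB-positive oocytes, against 14.2, 10.6 and 14.3 FPKM in BCB-negative oocytes. The classes did not overlap, but only narrowly, and BCB-positive oocyte 3 was more than 2-fold above every other oocyte. The log2 difference was 0.86 (SD 0.59), or 1.81-fold, and 0.41 without BCB-positive oocyte 3, under 1.5-fold.

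DDX21 (NCBI gene 100153111), which links transcription of ribosomal RNA to its processing, had separate classes at a smaller size. It had 29.8, 40.2 and 47.2 FPKM in BCB-positive oocytes, against 23.1, 28.8 and 26.5 FPKM in BCB-negative oocytes. The log2 difference was 0.54 (SD 0.26), or 1.46-fold, and 0.40 without BCB-positive oocyte 3. With FPKM rescaled to a common sum it was 0.64, past 1.5-fold. At any size, 5 of the 42 members were higher with no overlap, or 11.9%, next to 7.44% of all genes, and 1 was lower, or 2.38%, next to 4.03%. DDX55, of large subunit maturation, stood at 9.37, 13.6 and 15.9 FPKM in BCB-positive oocytes, against 12.2, 5.92 and 5.34 FPKM in BCB-negative oocytes. Its log2 difference was 0.71 (SD 0.48), the classes overlapped through BCB-negative oocyte 1, and the difference was under 1.5-fold in 3 omissions, at 0.56 for BCB-positive oocyte 3, 0.58 for BCB-negative oocyte 2 and 0.51 for BCB-negative oocyte 3.

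Other nucleolar helicases overlapped between the classes. DDX49 averaged 37.9 ± 12.1 FPKM in BCB-positive and 40.2 ± 6.26 FPKM in BCB-negative oocytes, and DDX54 averaged 32.3 ± 5.51 FPKM in BCB-positive and 37.2 ± 6.01 FPKM in BCB-negative oocytes (SD, n = 3 each). DDX27 was among the most variable members, at 4.43, 4.97 and 27.7 FPKM in BCB-positive oocytes, against 6.64, 2.13 and 12 FPKM in BCB-negative oocytes. Its log2 difference was 0.53 (SD 1.20), and -0.25 without BCB-positive oocyte 3. DDX47 had 0.21, 3.04 and 6.41 FPKM in BCB-positive oocytes, against 3.12, 3.46 and 1.08 FPKM in BCB-negative oocytes, with a log2 difference of -0.03 (SD 1.03). DDX31, DHX37 and DDX56 had log2 differences of -0.44, -0.41 and -0.10. DDX24, DDX51 and DDX10 had a mean under 1 FPKM and were not compared. DDX51 had 27 expected counts (95% Poisson interval 17.8 to 39.3) in BCB-positive and 3 (0.619 to 8.77) in BCB-negative oocytes, intervals that do not meet but cover counting error only. Per oocyte it stood at 0.56, 0.64 and 0.13 FPKM in BCB-positive oocytes, against 0, 0.16 and 0 FPKM in BCB-negative oocytes. Its classes thus overlapped through BCB-positive oocyte 3. DDX10, with a model of 439 bases, had 2 expected counts in BCB-positive and 0 in BCB-negative oocytes.

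Helicases of mRNA export and translation were mostly low. Of 8 listed, 7 were found and compared, with 1 at least 1.5-fold higher (DDX19A) and 0 lower, and a median log2 difference of 0.16. Without BCB-positive oocyte 3 the median was -0.10, with 1 higher and 1 lower (DDX25). DDX3X, which helps ribosomes start on structured mRNA, was the most abundant of them, at 18.4, 17.9 and 22.2 FPKM in BCB-positive oocytes, against 26.4, 19.8 and 16.03 FPKM in BCB-negative oocytes. The classes overlapped, with a log2 difference of -0.06 (SD 0.27). DHX36, which opens G-quadruplexes, stood at 3.03, 8.04 and 8 FPKM in BCB-positive oocytes, against 5.08, 4.69 and 5.45 FPKM in BCB-negative oocytes, a log2 difference of 0.19 (SD 0.48). DHX29, which aids scanning by the small ribosomal subunit, and DDX1, of the tRNA ligase complex, averaged 1.39 and 1.22 FPKM in BCB-positive oocytes and 1.05 and 0.983 FPKM in BCB-negative oocytes.

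DDX19A (NCBI gene 100524144), a relative of the helicase that releases mRNA at the nuclear pore, had 2.07, 6.20 and 6.23 FPKM in BCB-positive oocytes, against 2.49, 2.32 and 0.66 FPKM in BCB-negative oocytes. BCB-positive oocyte 1 lay among the BCB-negative oocytes, so the classes overlapped. The log2 difference was 1.02 (SD 0.66), or 2.03-fold, and 0.67 without BCB-negative oocyte 3. It rested on 176 expected counts (95% Poisson interval 151 to 204) in BCB-positive and 61.7 (47.3 to 79.2) in BCB-negative oocytes. DDX19B, its near copy, stood at 2.47, 0.97 and 2.19 FPKM in BCB-positive oocytes, against 0.56, 2.22 and 1.36 FPKM in BCB-negative oocytes. How reads were divided between these near-identical genes is not given in the sources used here, so both are uncertain. DDX19A held 45.6%, 86.5% and 74.0% of their joint FPKM in BCB-positive oocytes and 81.6%, 51.1% and 32.7% in BCB-negative oocytes.

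Of the germ line helicases, DDX43 (NCBI gene 100155174), known for its role in sperm formation in mice, had the largest difference among members above 10 FPKM. It had 18.8, 18.7 and 53.3 FPKM in BCB-positive oocytes, against 15.5, 11.0 and 8.08 FPKM in BCB-negative oocytes. BCB-positive oocytes 1 and 2 were nearly equal and just above the highest BCB-negative oocyte, and BCB-positive oocyte 3 was far above all. The means were 30.2 ± 19.9 FPKM in BCB-positive and 11.5 ± 3.76 FPKM in BCB-negative oocytes (SD, n = 3 each), and the log2 difference was 1.19 (SD 0.67), or 2.27-fold. It was 0.70 without BCB-positive oocyte 3, still at least 1.5-fold. DDX25, a testis helicase that carries mRNA out of the nucleus in mouse spermatids, had the largest SD of the members compared. It stood at 0.21, 5.48 and 6.74 FPKM in BCB-positive oocytes, against 1.23, 9.02 and 3.41 FPKM in BCB-negative oocytes, a log2 difference of -0.23 (SD 1.30), whose sign turned to 0.62 when BCB-positive oocyte 1 was left out.

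**Figure D4:**
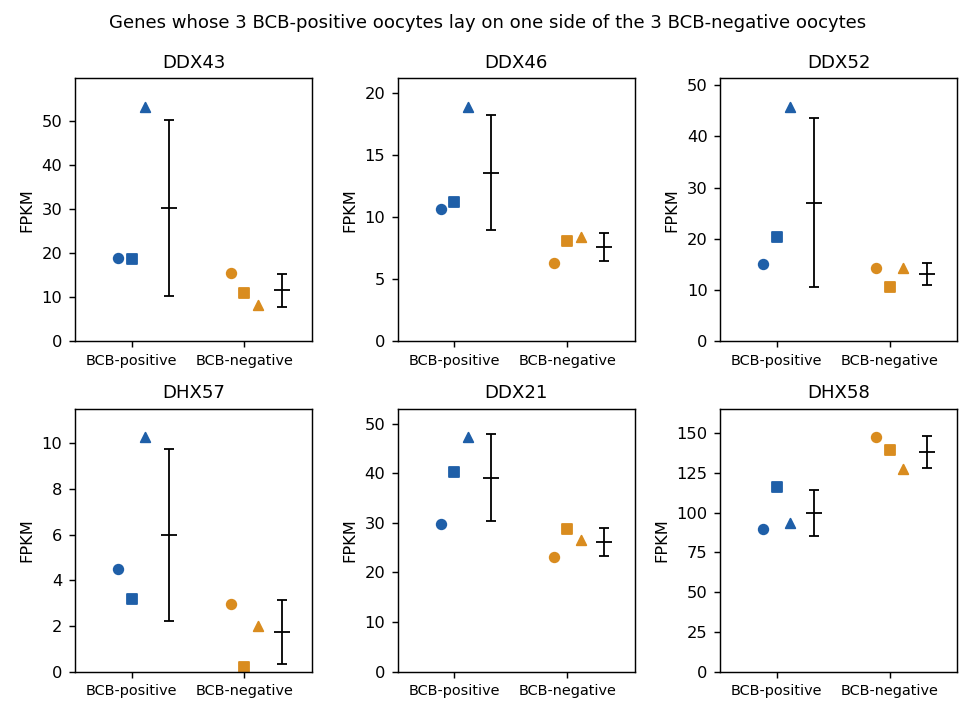
FPKM of the 6 members, of the 42 compared, whose 3 BCB-positive oocytes all lay above or all lay below the 3 BCB-negative oocytes (circle, square and triangle for oocytes 1, 2 and 3, with mean and SD, n = 3, in black). BCB-positive oocyte 3 is the highest of all for DDX43, DDX46, DDX52, DHX57 and DDX21, and DHX58 is lower in all BCB-positive oocytes.

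Innate immune sensors of RNA included the most abundant member of the family, and the other sensors were near 0. DHX58 (NCBI gene 100524520), also called LGP2, a sensor of double-stranded RNA that lacks the signalling domain of its relatives, had 89.6, 116 and 93.4 FPKM in BCB-positive oocytes, against 147, 139 and 127 FPKM in BCB-negative oocytes. Every BCB-positive oocyte lay below every BCB-negative one. The means were 99.7 ± 14.3 FPKM in BCB-positive and 138 ± 10.1 FPKM in BCB-negative oocytes (SD, n = 3 each), a log2 difference of -0.47 (SD 0.16) that is under 1.5-fold. With all oocytes it ran from -0.38 with FPKM rescaled to a common sum to -0.57 under size factors. With an oocyte left out it ran from -0.40 without BCB-positive oocyte 1 to -0.58 without BCB-positive oocyte 2, and was -0.43 without BCB-positive oocyte 3. The level put DHX58 at percentile 90.7 of the genes compared by mean FPKM. DDX58, the sensor RIG-I, stood at 0, 0.49 and 1.01 FPKM in BCB-positive oocytes, against 0.81, 0.14 and 0.25 FPKM in BCB-negative oocytes. DDX60, an interferon-induced helicase, had 0.76, 1.09 and 1.38 FPKM in BCB-positive oocytes, against 0.73, 0.18 and 0.47 FPKM in BCB-negative oocytes. The DDX60 values were separate by a narrow margin, with a mean under 1 FPKM, so it was not compared.

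Mitochondrial helicases, which act on the mitochondrial ribosome and its RNA, gave no common direction. DDX28 stood at 10.5, 14.3 and 32.3 FPKM in BCB-positive oocytes, against 12.5, 14.1 and 7.05 FPKM in BCB-negative oocytes. The classes overlapped, and the log2 difference of 0.61 (SD 0.66) was 0.17 without BCB-positive oocyte 3. It was 0.34 when BCB-negative oocyte 3 was omitted, also under 1.5-fold. It was 0.94 with BCB-positive oocyte 1 left out and 0.52 under size factors. DHX30 averaged 25.8 ± 5.88 FPKM in BCB-positive and 29.3 ± 11.4 FPKM in BCB-negative oocytes (SD, n = 3 each). DDX28 overlaps DUS2 in the reference annotation, which averaged 10.7 FPKM in BCB-positive and 11.9 FPKM in BCB-negative oocytes. DDX11, a DNA helicase of sister chromatid cohesion, had 58.4, 36.4 and 48.7 FPKM in BCB-positive oocytes, against 25.6, 28.8 and 68.4 FPKM in BCB-negative oocytes. BCB-negative oocyte 3 was the highest of all, and without it the log2 difference of 0.34 was 0.77. DDX11 overlaps WASHC1 in the reference annotation, which stood at 7.00 to 16.9 FPKM in BCB-positive and 11.5 to 21.5 FPKM in BCB-negative oocytes.

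A mixed group of snRNP assembly, quality control and other RNA processing had 6 members compared, with 1 at least 1.5-fold higher (DHX57) and 0 lower. The median log2 difference was 0.44. Leaving out BCB-positive oocyte 3 gave a median of 0.36 with 1 higher and 0 lower. DHX57 (NCBI gene 100520373) stood at 4.48, 3.18 and 10.3 FPKM in BCB-positive oocytes, against 2.98, 0.21 and 2.02 FPKM in BCB-negative oocytes. The classes were narrowly apart, with BCB-positive oocyte 2 at 3.18 FPKM just above BCB-negative oocyte 1 at 2.98 FPKM. The log2 difference of 1.38 (SD 0.82), or 2.61-fold, was the largest of the 42 members, and it was 0.97 without BCB-positive oocyte 3 and 0.88 once BCB-negative oocyte 2 was left out. With a pseudocount of 0.1 FPKM it was 2.09. It rested on a gene model of 687 bases and on 98 expected counts (95% Poisson interval 79.6 to 119) in BCB-positive and 24 (15.4 to 35.7) in BCB-negative oocytes. DHX57 overlaps MORN2 and GEMIN6 in the reference annotation, so its value is uncertain. GEMIN6 had 152, 149 and 381 FPKM in BCB-positive oocytes, against 136, 176 and 84.5 FPKM in BCB-negative oocytes, and MORN2 averaged 169 FPKM in BCB-positive and 208 FPKM in BCB-negative oocytes. The part of these neighbours in the DHX57 value was not tested.

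DDX59, a gene mutated in a human craniofacial and digit syndrome, stood at 61.5, 64.1 and 76.0 FPKM in BCB-positive oocytes, against 50.8, 62.1 and 30.9 FPKM in BCB-negative oocytes. The classes overlapped by the narrow gap between BCB-negative oocyte 2 and BCB-positive oocyte 1, and the log2 difference was 0.53 (SD 0.38), and 0.74 without BCB-negative oocyte 2. DDX20, the helicase of the SMN complex that assembles spliceosomal snRNPs, averaged 24.3 ± 9.69 FPKM in BCB-positive and 27.0 ± 5.40 FPKM in BCB-negative oocytes (SD, n = 3 each). DHX32 had 11.7, 25.5 and 15.5 FPKM in BCB-positive oocytes, against 16.4, 9.05 and 13.3 FPKM in BCB-negative oocytes. DHX40 averaged 6.82 FPKM in BCB-positive and 4.65 FPKM in BCB-negative oocytes, and DHX34, of nonsense-mediated decay, averaged 1.37 FPKM in BCB-positive and 1.19 FPKM in BCB-negative oocytes.

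**Figure D5:**
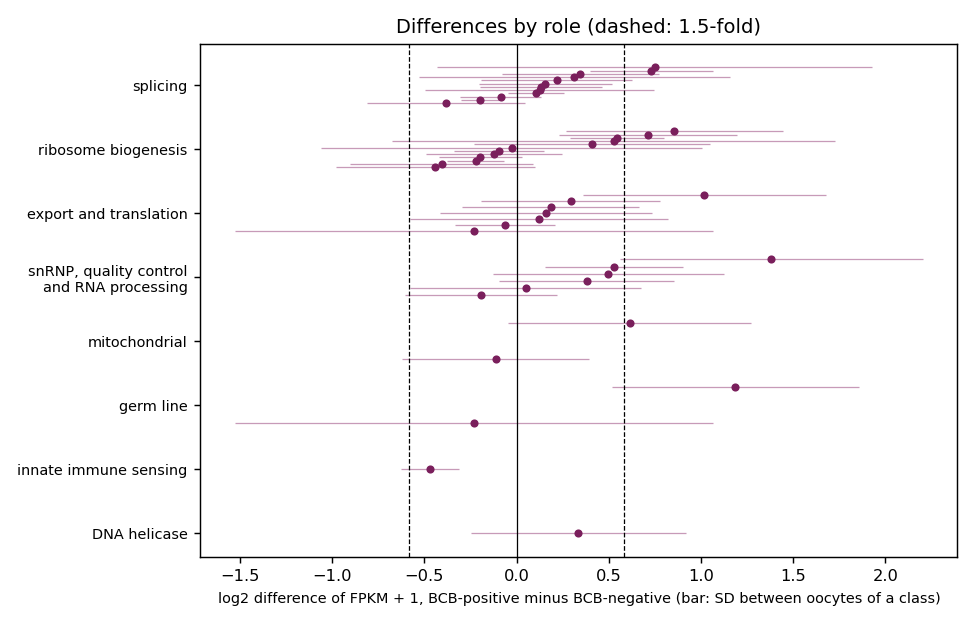
Log2 difference of FPKM + 1, BCB-positive minus BCB-negative, of the 42 members grouped by role (points, with SD between oocytes of a class as bars; DDX25 stands under export and under germ line). Every role with more than 1 member compared has differences on each side of 0, and the dashed lines mark 1.5-fold.

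Among the pairs of relatives, DDX17, DDX39B and DDX21 stood above DDX5, DDX39A and DDX50 in every oocyte. No pair had a balance that separated the classes. DHX36 held 40.3%, 71.7% and 43.8% of its joint FPKM with DHX57 in BCB-positive oocytes, and 63.0%, 95.7% and 73.0% in BCB-negative oocytes. The higher gene thus changed between oocytes, as it did for DDX19A and DDX19B, and the DHX57 value is uncertain. DHX15 held at most 15.9% of its joint FPKM with DHX32. DDX17, a close relative of DDX5, stood at 41.6, 33.7 and 47.9 FPKM in BCB-positive oocytes, against 49.8, 38.5 and 42.2 FPKM in BCB-negative oocytes. The short model of DDX5 leaves the balance of that pair uncertain. DDX39A, a close relative of DDX39B, had 15.3, 15.3 and 26.5 FPKM in BCB-positive oocytes, against 15.95, 10.0 and 18.1 FPKM in BCB-negative oocytes. Its share of the joint FPKM of the pair was 18.7%, 17.8% and 23.5% in BCB-positive oocytes and 14.1%, 14.9% and 25.5% in BCB-negative oocytes. DDX50, the relative of DDX21, stood at 4.10, 4.96 and 15.0 FPKM in BCB-positive oocytes, against 5.56, 4.52 and 4.73 FPKM in BCB-negative oocytes, so that only BCB-positive oocyte 3 stood out, and the log2 difference of 0.41 was -0.10 without it. DDX21 was 3.14-fold to 8.10-fold above DDX50 per length in BCB-positive oocytes and 4.15-fold to 6.37-fold above it in BCB-negative oocytes.

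Transcript shares were read for the 14 members that had several listed transcripts and reached 5 FPKM in all oocytes. None of their 37 transcripts (0) had shares that were separate between classes and at least 20 percentage points apart. The same share over the transcripts of all genes was not computed, so such counts are not read as high or low. The 3967-base transcript of DDX18 made up 81.4%, 94.4% and 90.4% of the gene's FPKM in BCB-positive oocytes and 83.0%, 44.8% and 38.9% in BCB-negative oocytes. Its share thus overlapped only through BCB-negative oocyte 1. A 4030-base transcript of DHX30 was at 0% in all BCB-positive oocytes and at 11.2%, 21.1% and 3.92% in BCB-negative oocytes. This was the single transcript with separate classes at any size. Both transcripts are named after their values were seen, and shares are estimates from reads that the transcripts of a gene hold in common.

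In relatives of the family and its protein partners, the genes at least 1.5-fold apart with separate classes were MTREX, PAIP1 and EIF4B. They were 1 of 7 helicases without a DDX or DHX symbol and 2 of 13 partners of DEAD helicases compared. The other lists, with 5, 15, 7 and 7 genes compared, had 0 of this kind. Of all genes, 5.75% were higher in that way. Of 12 helicases of the same wider class without a DDX or DHX symbol, 7 were compared, with 3 at least 1.5-fold higher (EIF4A2, DICER1 and MTREX) and 0 lower. The one with separate classes was MTREX (SKIV2L2 in the annotation), which feeds nuclear RNA to the exosome, at 48.5, 45.8 and 130 FPKM in BCB-positive oocytes, against 26.8, 29.1 and 37.4 FPKM in BCB-negative oocytes. Its log2 difference was 1.08 (SD 0.62), and 0.60 without BCB-positive oocyte 3. MTREX overlaps DHX29 in the reference annotation, so the low DHX29 is uncertain. Of 8 RNA helicases of superfamily 1, which lies outside the family, 5 were compared, with 0 at least 1.5-fold higher and 1 lower (ZNFX1, by a log2 difference of -0.59). IGHMBP2 had separate classes at a smaller size, with 2.59 to 3.25 FPKM in BCB-positive and 1.51 to 2.26 FPKM in BCB-negative oocytes, a log2 difference of 0.44. UPF1 of nonsense-mediated decay and MOV10 averaged 32.7 and 12.1 FPKM in BCB-positive oocytes and 36.7 and 13.3 FPKM in BCB-negative oocytes.

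Among 21 partners of DEAH helicases with a glycine-rich patch, 15 were compared, with 3 at least 1.5-fold higher (GPATCH1, PINX1 and TFIP11) and 0 lower, all with overlap. GPATCH11 and RBM17, the most abundant, had log2 differences of 0.16 and 0.44, and of 0.24 and 0.09 without BCB-positive oocyte 3. Of 15 partners of DEAD helicases, 13 were compared, with 3 at least 1.5-fold higher (EIF4G3, PAIP1 and EIF4B), PAIP1 and EIF4B with separate classes, and 0 lower. PAIP1, which binds poly(A) binding protein and the helicase EIF4A, had 201, 272 and 594 FPKM in BCB-positive oocytes, against 173, 173 and 124 FPKM in BCB-negative oocytes. EIF4B, which stimulates EIF4A, stood at 37.3, 36.7 and 51.9 FPKM in BCB-positive oocytes, against 21.5, 24.6 and 21.4 FPKM in BCB-negative oocytes. Both kept more than 1.5-fold without BCB-positive oocyte 3, with log2 differences of 1.04 and 0.59 with and without it for PAIP1, and 0.85 and 0.70 for EIF4B. Among the TREX partners of DDX39B, 2 of 7 compared were higher (THOC1 and SARNP) and 0 lower, and CHTOP and THOC6, the most abundant, differed by -0.13 and -0.05. Of the SMN complex partners of DDX20, 1 of 7 compared was higher, GEMIN6 by 0.69 with overlap, and 0 lower, while SMN1 differed by 0.38. Of the higher genes named from these lists, MTREX, PINX1, PAIP1 and EIF4B were at least 1.5-fold higher without BCB-positive oocyte 3 too. THOC7 (0.62) was then at least 1.5-fold higher and THOC2 (-0.63) and ZNFX1 (-1.26) at least 1.5-fold lower.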

How the data were processed

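Each of 6 libraries held 1 oocyte. Expected counts (estimates that need not be whole) and FPKM values per gene and transcript were deposited by the authors, with BWA, Cufflinks, RSEM and build Sscrofa10.2 named in the submitters' processing notes. Their versions and settings are not stated there. FPKM values in the deposited files were already scaled by the authors to length and depth. A gene absent from a file was set to 0. Of 19300 genes, 13936 matched the Sscrofa11.1 RefSeq table by gene ID, used for symbols and overlaps only. DDX3Y, DDX41, DDX53, DDX60L and DHX33 were not found by symbol in any oocyte.

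Class means of log2(FPKM + 1) were subtracted, BCB-negative from BCB-positive, for the 11495 genes averaging 1 FPKM or more. This scale understates differences of low genes. The error given is the SD between oocytes, pooled over both classes. FPKM is relative to the library, so RNA content per oocyte was not measured. Differences of at least 1.5-fold were counted. Values in every oocyte were given by rule for the 8 most abundant members, the 8 furthest apart, the 4 with the largest SD and fixed pairs of relatives, and for up to 3 genes per list of other genes. Other members are given by means, differences or counts. DDX51, DDX58, DDX60, DHX9, the genes that overlap a member and the other genes named from the lists stand outside that rule and were chosen after their values were seen. Members and lists were chosen with earlier results of these data known. No p-value was computed. Poisson intervals (95%) and the limit of 3 counts cover counting error only, since the protocol names no molecular identifiers. Alternatives were a pseudocount of 0.1 FPKM, filters of 0 and 5 FPKM, size factors, a common sum, CPM, the ratio of class means and leaving out each oocyte. Python 3.11.15, pandas 2.3.3 and scipy 1.17.1 were used.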

Additional observations from a re-analysis of the deposited data

How the results depend on the processing

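With another pseudocount, scaling, CPM or the ratio of class means, each member difference that could be computed stayed within 1 SD between oocytes of the reported value. That band is wide for some members, so staying within it does not show a stable size. DDX5 went from 0.75 to 1.79 with a pseudocount of 0.1 FPKM, within its SD of 1.18. The filters leave a difference as it is, and leaving out 1 of 3 oocytes cannot move it by 1 SD, so neither bears on stability. The median difference of members ran from 0.08 (size factors) to 0.24 (common sum) over the other settings with all oocytes and from 0.02 to 0.31 with an oocyte left out. The median of all genes compared moved alongside, from 0.02 (size factors) to 0.19 (common sum). With an oocyte left out it ran from 0.05 to 0.15. The count at least 1.5-fold higher was 5 of 31 with a mean of at least 5 FPKM, next to 16.3% of all genes. It was 7 of 42 under size factors, next to 15.2%, and 11 of 42 with a common sum, next to 23.1%. It was 4 to 16 with an oocyte left out, next to 14.6% to 26.0% of all genes. The count lower was 1 (DDX25) with a pseudocount of 0.1 FPKM, next to 13.6% of all genes. It was 0 to 3 with an oocyte left out, next to 10.3% to 13.6% of all genes. With no overlap, 2 to 9 were higher and 0 to 2 lower with an oocyte left out, when fewer oocytes need to be ordered. Of all genes, 7.19% to 13.7% were then higher with no overlap, and at most 6.92% lower. With a common sum and all oocytes, 6 members were higher with no overlap, next to 7.12% of all genes. The count of separate transcripts at least 20 points apart was 0 at a minimum of 1 FPKM, again with no share over all genes computed. With BCB-positive oocyte 1, 2 or 3 left out it was 2, 1 and 1, and with BCB-negative oocyte 1, 2 or 3 left out it was 3, 0 and 1, a check chosen after seeing the data. No paired analysis was possible because the class difference comes from no test, and the labels give nothing that ties an oocyte of one class to an oocyte of the other. DHX9 and DDX10 rest on fewer than 4 counts per class, so differences there were not detectable at this depth.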
